A study of Homo sapiens with 10 samples.

Results

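The CEACAM genes encode cell surface adhesion molecules of the immunoglobulin superfamily related to carcinoembryonic antigen. The genes described here are CEACAM1, CEACAM5, CEACAM6, CEACAM7 and CEACAM8, 5 of 18279 genes measured. They are paralogs, chosen by the measured levels of CEACAM6, which stood far higher in AD32 cells than in A549 cells, so that difference is described without a test. Each of the 5 genes had 1 probe set of its own in the platform annotation, and all 5 were in the fit, with no filter on low values.

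Transcripts were measured on 10 arrays of total RNA, 1 per sample, from cultured cells of A549, a human lung adenocarcinoma line, and of AD32, a line known to have been derived from it. A549 received 0.01% DMSO (4 arrays, labelled sensitive) or the microtubule-stabilising natural product discodermolide at 32 nM (2 arrays, labelled senescent). AD32, labelled resistant, was grown in 32 nM discodermolide (3 arrays), and AD32 4E-BP1, a line named for the translation repressor 4E-BP1 and labelled sensitive, received 0.01% DMSO (1 array). All groups were grown in the same serum-containing medium. AD32 against A549 in DMSO therefore differs in both line and drug, and so does AD32 4E-BP1 against AD32. Outside AD32 4E-BP1, each array's title presents it as a biological repeat. Whether a line is 1 clone, how 4E-BP1 was introduced, and how the repeats were grown apart are not stated there. The p-values therefore measure the spread between these samples, and how much of it is technical was not tested.

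CEACAM proteins carry an outer immunoglobulin domain through which they bind themselves, one another and certain microbes. CEACAM5 (carcinoembryonic antigen itself), CEACAM6, CEACAM7 and CEACAM8 are held in the membrane by a glycosylphosphatidylinositol (GPI) anchor, whereas CEACAM1 crosses the membrane and its long form signals through inhibitory tyrosine motifs that recruit phosphatases. CEACAM5 and CEACAM6 are made by many epithelia and are often abundant in carcinomas of the colon, pancreas and lung, where CEACAM6 is known for opposing death after loss of attachment. CEACAM7 is chiefly a gene of the colonic epithelium, and CEACAM8 is a marker of granulocytes.

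The genes lie on chromosome 19, where CEACAM7, CEACAM5 and CEACAM6 are direct neighbours and CEACAM1 and CEACAM8 form a second pair further along. The bases just before the start of the 4 genes below are shown because these similar stretches lie before genes whose transcripts differed in pattern. They are RefSeq sequences of build GRCh38.p14, 150 bases each, written 5′ to 3′ along the gene and ending 1 base before the start site. Capitals mark the E-box CACGTG.
CEACAM6 (chr19:41755380-41755529, plus strand): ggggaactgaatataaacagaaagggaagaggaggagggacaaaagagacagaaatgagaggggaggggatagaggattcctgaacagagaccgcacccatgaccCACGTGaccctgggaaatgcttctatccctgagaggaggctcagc
CEACAM5 (chr19:41708476-41708625, plus strand): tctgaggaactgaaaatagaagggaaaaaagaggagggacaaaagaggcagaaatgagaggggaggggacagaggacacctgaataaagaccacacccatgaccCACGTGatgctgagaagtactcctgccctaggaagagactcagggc
CEACAM7 (chr19:41688271-41688420, minus strand): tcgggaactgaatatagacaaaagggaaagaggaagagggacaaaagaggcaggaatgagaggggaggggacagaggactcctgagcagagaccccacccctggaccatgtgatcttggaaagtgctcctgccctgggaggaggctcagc
CEACAM1 (chr19:42528482-42528631, minus strand): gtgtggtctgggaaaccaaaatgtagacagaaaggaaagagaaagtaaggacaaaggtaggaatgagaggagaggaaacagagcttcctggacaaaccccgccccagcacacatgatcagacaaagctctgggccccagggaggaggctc

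Over the 250 bases before the start, the CEACAM6 sequence was 74.62% identical to that of CEACAM5, 79.92% to CEACAM7, 68.18% to CEACAM1 and 58.01% to CEACAM8 in a global alignment. The palindrome CACGTG was found in the windows of CEACAM6 (first base at -45) and CEACAM5 (first base at -46) and in none of CEACAM1, CEACAM7 and CEACAM8. In the alignment, the bases facing it were CATGTG in CEACAM7 and CACATG in CEACAM1. Of 35116 RefSeq promoter windows of this length, 6.34% held CACGTG, which reads the same on both strands, and 1.42% held the longer CCACGTGA, on either strand and overlapping the former, which both CEACAM6 and CEACAM5 also held. The GC box GGGCGG, on either strand, was present before CEACAM6, CEACAM1 and CEACAM8 and absent before CEACAM5 and CEACAM7, against 42.6% of all windows. TATAAA, on either strand, was found before CEACAM6 alone among the 5 genes (10.7% of all windows), and CCCACCC before CEACAM7 alone (18.2%). These matches describe letters and are not evidence of a bound factor.

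Several arrays stood apart from their labels' group and bear on what follows. On A549 DMSO replicate 1 the mean level of 29 G2/M and mitosis genes was 6.75 on the log2 scale, near the discodermolide arrays (6.51 and 6.74) and far from the other DMSO arrays (9.82 to 9.93). Over all probe sets this array correlated at 0.978 and 0.976 with the discodermolide arrays and at 0.956 to 0.961 with the other DMSO arrays. The AD32 arrays were split likewise, with 5.16 for replicate 1, 6.14 for replicate 2 and 9.54 for replicate 3. AD32 replicate 3 correlated more closely over all probe sets with A549 DMSO replicate 2 (r = 0.981) than with AD32 replicates 1 and 2 (0.959 and 0.965). The AD32 4E-BP1 array correlated at 0.996 with A549 DMSO replicate 2 and at 0.944 to 0.983 with the AD32 arrays. Its EIF4EBP1 level, which encodes 4E-BP1, was 11.61 against 8.52 on average in AD32 and 9.68 in A549 in DMSO. A549 DMSO replicates 3 and 4 were nearly alike (r = 0.997). The epithelial keratins KRT8 and KRT18 were at 12.67 or more on every array, while the epithelial marker EPCAM was at 3.87 or less, below the lower quartile of every array. KRT19, NKX2-1, NAPSA, SFTPB, SFTPC and SCGB1A1 were at 6.53 or less, each below the median of the array. CDH1 lay at 8.46 to 10.40 and was 2.17-fold higher in AD32 than in A549 in DMSO (limma adjusted p = 0.0357). That call was lost without AD32 replicate 1 or 2 or A549 DMSO replicate 2, 3 or 4.

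**Figure D1:**
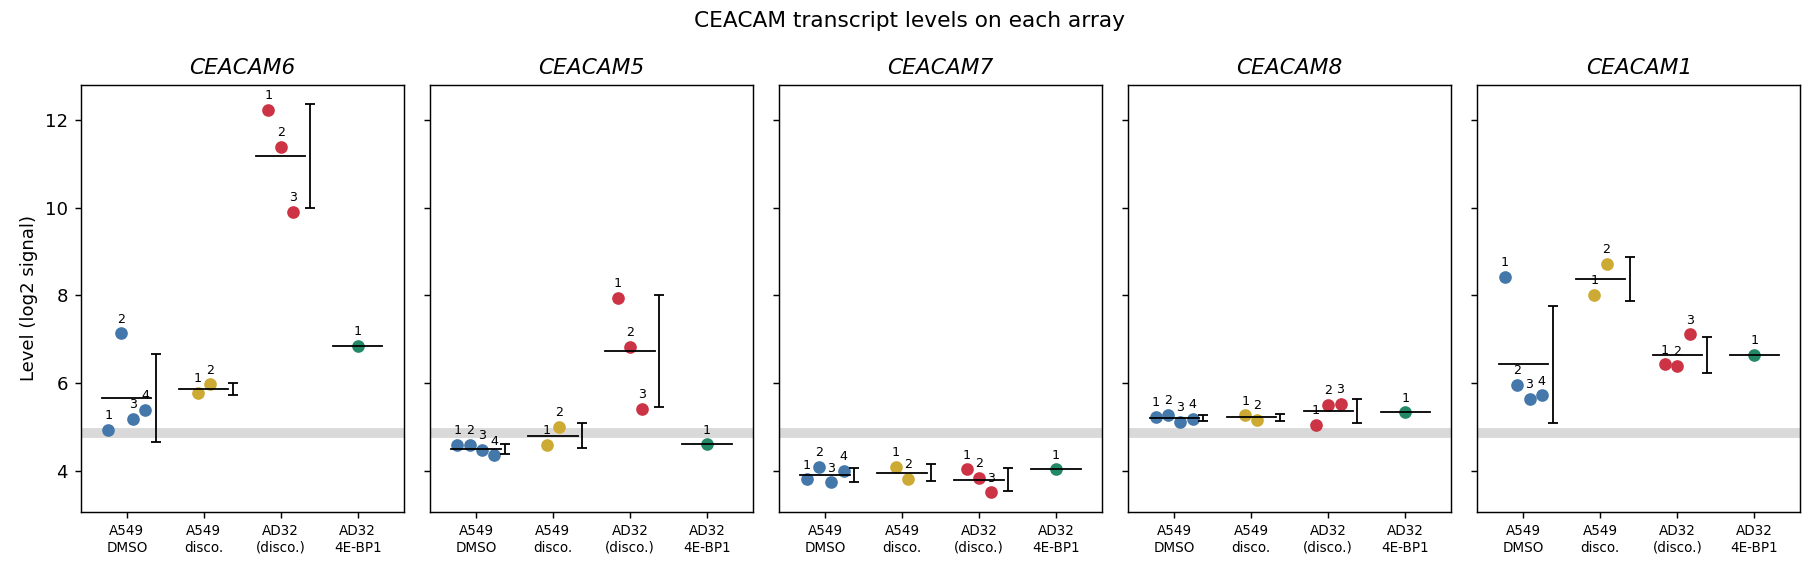
Level (log2 signal, vertical axis) of each CEACAM gene on each array, numbered by replicate, in the 4 groups. Lines are group means, bars are 1 SD where a group has over 1 array, and the grey band spans the lower quartiles of the arrays (4.77 to 4.94). CEACAM6 and CEACAM5 are high in AD32, CEACAM1 in A549 in discodermolide and on A549 DMSO replicate 1, and CEACAM7 and CEACAM8 are level.

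CEACAM6, a GPI-anchored adhesion molecule, was the paralog with the widest range, spanning 7.30 on the log2 scale over the 10 arrays. In AD32 its level was 12.24, 11.38 and 9.90 on replicates 1, 2 and 3. In A549 in DMSO it was 4.94, 7.13, 5.18 and 5.38 on replicates 1 to 4, and in A549 in discodermolide 5.77 and 5.97. All 3 AD32 arrays lay above all 6 A549 arrays, with the nearest pair, AD32 replicate 3 and A549 DMSO replicate 2, still 9.90 against 7.13. In AD32 the probe set ranked between the 91.95 and 99.5 percentiles of its array, and in A549 in DMSO between 24.95 and 57.45.

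On the mean of the arrays, CEACAM6 was higher in AD32 than in A549 in DMSO by 5.52 on the log2 scale (SE 0.62), or 45.8-fold. Against A549 in discodermolide, which shares the same AD32 arrays, it was higher by 5.30 (SE 0.74), or 39.4-fold. These values chose the gene and carry no test here. AD32 replicate 3, with the high mitotic level, held the lowest CEACAM6 of the 3, and without it the 2 folds were 71.2 and 61.4. Without AD32 replicate 1 they were 31.6 and 27.3. Folds of signal are given, and they need not equal ratios of transcripts where 1 side is near the lower quartile.

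CEACAM5, which encodes carcinoembryonic antigen and lies next to CEACAM6, was likewise highest on AD32 replicate 1 and lowest of the AD32 arrays on replicate 3. It stood at 7.95, 6.83 and 5.41 on AD32 replicates 1, 2 and 3. In A549 in DMSO it was 4.58, 4.58, 4.48 and 4.35, and in discodermolide 4.60 and 5.01. The AD32 arrays again lay above all A549 arrays, but AD32 replicate 3 only narrowly so. All 4 DMSO values were below the lower quartile of their arrays, between the 19.2 and 21.99 percentiles, where signal above background was not shown.

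The difference of CEACAM5 between AD32 and A549 was 2.23 on the log2 scale against DMSO (SE 0.48, 4.69-fold) and 1.92 against discodermolide (SE 0.57, 3.80-fold), both given as descriptions of the contrast that chose CEACAM6. Without AD32 replicate 3 the folds were 7.41 and 6.0, and without AD32 replicate 1 they were 3.07 and 2.49. Within AD32, CEACAM5 spanned 5.81-fold and CEACAM6 5.06-fold between replicates 1 and 3, whereas in A549 in DMSO CEACAM5 spanned 1.18-fold and CEACAM6 4.58-fold. On DMSO replicate 2, where CEACAM6 was raised, CEACAM5 was 4.58. That is below the lower quartile of the array, where a rise of CEACAM5 might not show. Over the 10 arrays the 2 genes correlated at r = 0.92, a value set mainly by the AD32 arrays they share.

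CEACAM7 and CEACAM8 varied little, spanning 0.59 and 0.48 on the log2 scale over the 10 arrays. CEACAM7 was 3.90 ± 0.16 (SD, n = 4) in A549 in DMSO, 3.96 ± 0.19 (SD, n = 2) in discodermolide, 3.79 ± 0.27 (SD, n = 3) in AD32 and 4.03 on the AD32 4E-BP1 array. It ranked between the 8.71 and 15.58 percentiles on every array, where signal above background was not shown. CEACAM8, the granulocyte marker, was 5.20 ± 0.07 (SD, n = 4), 5.22 ± 0.07 (SD, n = 2), 5.36 ± 0.27 (SD, n = 3) and 5.33 in the same order. Its AD32 values were 5.05, 5.50 and 5.53, and the first of these lay below all 4 DMSO arrays.

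AD32 and A549 overlapped for both genes. CEACAM7 differed between AD32 and A549 in DMSO by -0.11 (SE 0.16) and CEACAM8 by 0.16 (SE 0.14), and between AD32 and A549 in discodermolide by -0.16 (SE 0.19) and 0.14 (SE 0.17). Of the granulocyte markers limma called 0 in AD32 against A549 in DMSO, with 1 at an unadjusted p under 0.05. Over all genes 5.72% were called, and 3604 of 18279 had an unadjusted p under 0.05. The mean of the 15 measured granulocyte markers was 4.98 to 5.23 in A549 in DMSO, 5.07 to 5.11 in discodermolide, 5.0 to 5.21 in AD32 and 5.04 in AD32 4E-BP1. Of these 15, only DEFA4, MMP8, CXCR2, FPR1, S100A8 and S100A12 were below the lower quartile of every array. ELANE (7.08 to 7.71) and PRTN3 (6.71 to 7.93) were above the median of every array.

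CEACAM1, the transmembrane paralog, followed another pattern. It was 8.02 and 8.72 on the 2 arrays of A549 in discodermolide. In A549 in DMSO it was 8.42 on replicate 1 and 5.95, 5.63 and 5.72 on replicates 2, 3 and 4. In AD32 it was 6.43, 6.39 and 7.11, and on the AD32 4E-BP1 array 6.64. The discodermolide arrays and DMSO replicate 1 thus stood together at the top, between the 69.97 and 79.83 percentiles, and the other 7 arrays lay at 7.11 or below.

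A549 in discodermolide against A549 in DMSO is the comparison of drug within 1 line, and here the members can be tested, although the DMSO arrays were the low side of the contrast that chose CEACAM6. CEACAM1 was higher in discodermolide by 1.94 on the log2 scale (SE 0.71, 3.84-fold, 95% interval 0.34 to 3.54), with limma adjusted p = 0.349, and so was not called. With A549 DMSO replicate 1 left out, the difference was 2.60 (SE 0.27, 6.07-fold) with limma adjusted p = 0.00505. With the other arrays of these 2 groups left out in turn, the adjusted p ran from 0.516 to 0.955. That replicate also had the low mitotic level and the likeness to the discodermolide arrays given above, and whether it matches its label was not tested.

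The other members were not called with the drug. Of all genes, 0.372% were called in this comparison (limma adjusted p under 0.05, either direction), and 0 of the 5 members were. An unadjusted p under 0.05 was found for 1 of the 5, CEACAM1, and for 2033 of all 18279 genes, so these counts say little about the members. CEACAM6 differed by 0.21 (95% interval -1.37 to 1.80, limma adjusted p = 0.957). This was -0.03 without A549 DMSO replicate 1. Without replicate 2, the DMSO array with the highest CEACAM6, it was 0.71 (SE 0.57, limma adjusted p = 0.790). CEACAM5 differed by 0.30 (95% interval -0.91 to 1.52, limma adjusted p = 0.917), CEACAM7 by 0.05 (-0.36 to 0.47) and CEACAM8 by 0.02 (-0.35 to 0.38). For CEACAM5 and CEACAM6 the intervals reach past 1 on the log2 scale, so a doubling of either is within them. Their width comes from a spread shared by all groups. For CEACAM5 the SD was 1.27 in AD32, against 0.11 in A549 in DMSO and 0.29 in discodermolide. CEACAM5 had both discodermolide arrays above all DMSO arrays, as had 15.2% of all genes.

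**Figure D2:**
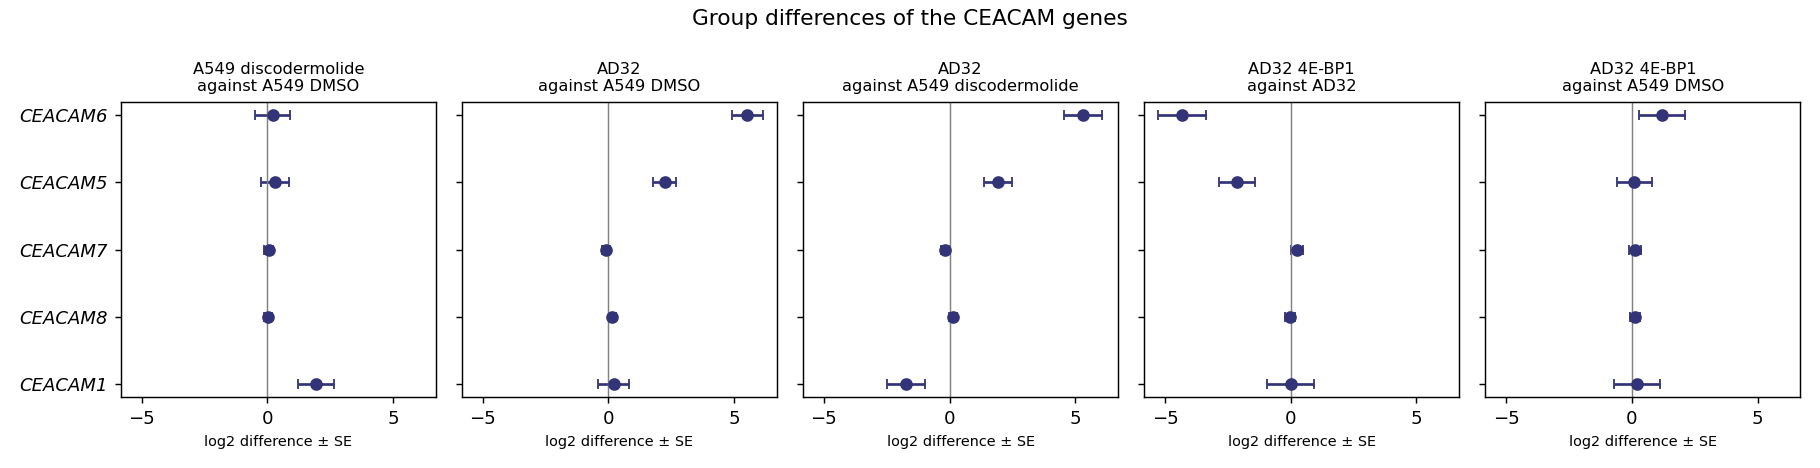
Difference of the first group minus the second (log2, horizontal axis) with its SE for each CEACAM gene in the 5 comparisons. In AD32 against A549 in DMSO, CEACAM6 and CEACAM5 differ by 5.52 and 2.23, and in A549 in discodermolide against DMSO CEACAM1 differs by 1.94.

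With all arrays kept, CEACAM1 did not stand apart between AD32 and A549 in DMSO. The difference was 0.21 (SE 0.62), with overlapping arrays, and this was 0.87 without A549 DMSO replicate 1, -0.05 without A549 DMSO replicate 3 and -0.02 without AD32 replicate 3. In equal drug, AD32 was lower than A549 by 1.73 (SE 0.75, 3.31-fold), and all 3 AD32 arrays lay below both A549 arrays, as 18% of all genes did. No test is given for these members in the AD32 contrasts, in which limma called 5.72% of all genes against DMSO and 3.74% against discodermolide. Of the 5 members, CEACAM5 and CEACAM6 had every AD32 array above every A549 DMSO array, which 8.9% of all genes had. They also lay above every discodermolide array, as did 14.4% of all genes. Against DMSO both were higher by at least 2 on the log2 scale, as were 0.574% of all genes.

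**Figure D3:**
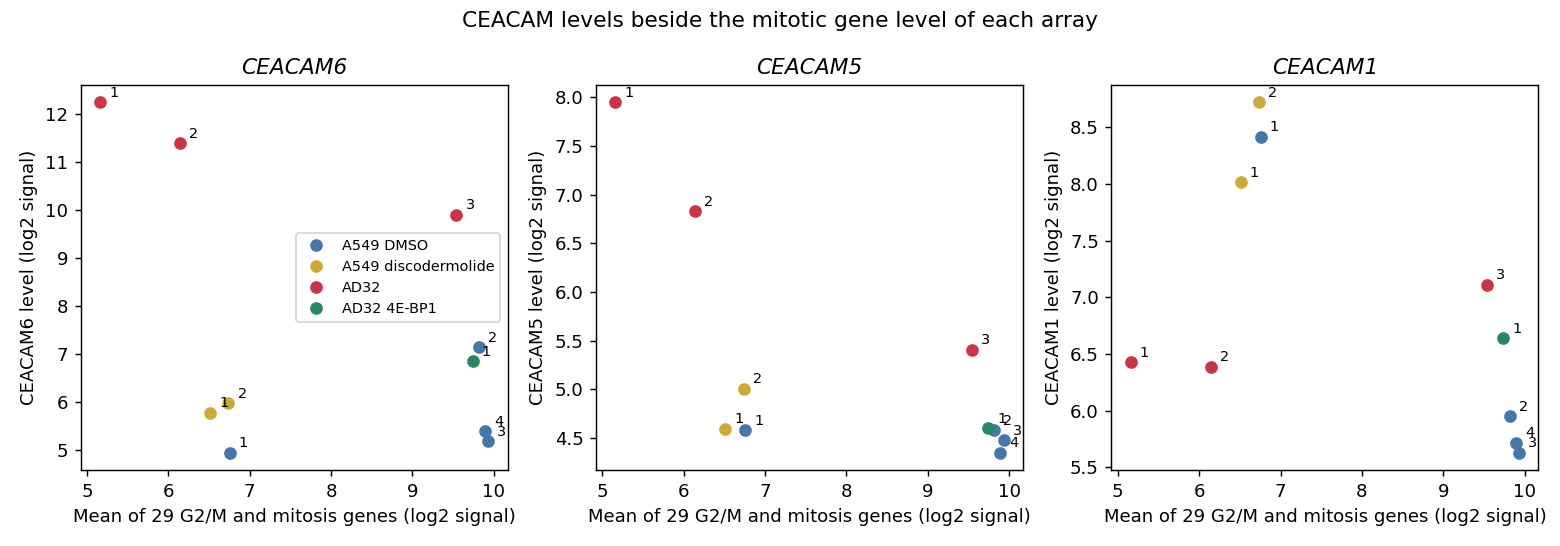
Level of CEACAM6, CEACAM5 and CEACAM1 (log2 signal, vertical axes) against the mean of 29 G2/M and mitosis genes (log2 signal, horizontal axis) on each array, numbered by replicate and coloured by group. Low mitotic arrays of A549 have high CEACAM1 (8.02 to 8.72) and low CEACAM6 (4.94 to 5.97), and those of AD32 have CEACAM1 at 6.39 and 6.43 and CEACAM6 at 11.38 and 12.24.

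The 3 A549 arrays with low mitotic transcripts, namely both discodermolide arrays and DMSO replicate 1, held CEACAM1 at 8.02 to 8.72, and the 3 other A549 arrays held it at 5.63 to 5.95. AD32 ran the other way. Its low mitotic replicates 1 and 2 held CEACAM1 at 6.43 and 6.39, below the 7.11 of the high mitotic replicate 3. CEACAM6 and CEACAM5 in AD32 were higher on the low mitotic replicates. In A549, CEACAM6 was 4.94, 5.77 and 5.97 on the low mitotic arrays and 7.13, 5.18 and 5.38 on the others, which overlap. CEACAM5 there was 4.58, 4.60 and 5.01 on the low mitotic arrays and 4.58, 4.48 and 4.35 on the others, which also overlap. All of these but 5.01 lay below the lower quartile of their array, so no direction is read from them. These are single arrays, and the differences between them were not tested.

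On the AD32 4E-BP1 array, CEACAM6 and CEACAM5 lay below all 3 AD32 arrays, as did 27.7% of all genes. CEACAM6 was 6.85, lower than the AD32 mean by 4.32 on the log2 scale (SE 0.94, 20.0-fold). CEACAM5 was 4.60, lower by 2.13 (SE 0.72, 4.37-fold). Without AD32 replicate 3 the folds were 31.1 and 6.91, and without AD32 replicate 1 they were 13.8 and 2.87. The AD32 side of this comparison is the high side of the contrast that chose CEACAM6, and its other side is a lone array, so these differences are a description with no test. Limma called none of the 5 members here, and as the comparison rests on a lone array, nothing is read from that.

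CEACAM6 on that array lay 21.6% of the way from the A549 DMSO mean to the AD32 mean, and CEACAM5 4.52%. CEACAM6 at 6.85 was within the A549 DMSO range, below replicate 2 at 7.13. CEACAM1 was at 6.64 in both (95% interval -2.13 to 2.13), CEACAM7 by 0.24 (-0.32 to 0.79) and CEACAM8 by -0.03 (-0.52 to 0.46). Against A549 in DMSO, CEACAM6 was higher by 1.19 (SE 0.91, 95% interval -0.86 to 3.24), CEACAM5 by 0.10 (-1.47 to 1.67) and CEACAM1 by 0.21 (-1.85 to 2.27). CEACAM7 and CEACAM8 each differed there by 0.13 (95% intervals -0.41 to 0.67 and -0.34 to 0.61). In that last comparison 0% of all genes were called by limma, and 208 of 18279 had an unadjusted p under 0.05, none of them a member. Since the array resembled A549 DMSO replicate 2 over all probe sets, as given above, whether line, drug or array identity accompanies its CEACAM levels was not tested.

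By group, then, CEACAM6 was ordered AD32, AD32 4E-BP1, A549 in discodermolide and A549 in DMSO, at 11.17, 6.85, 5.87 and 5.66. The last 3 all lay within the range of the DMSO arrays (4.94 to 7.13). CEACAM5 was ordered AD32, A549 in discodermolide, AD32 4E-BP1 and A549 in DMSO, with the last 3 between 4.50 and 4.80 on average. CEACAM1 was ordered A549 in discodermolide, AD32, AD32 4E-BP1 and A549 in DMSO, with the last 3 at 6.43 to 6.64. The DMSO mean and its SD of 1.33 rest largely on replicate 1, at 8.42. The other DMSO arrays, at 5.63 to 5.95, lay below every AD32 array (6.39 to 7.11) and below AD32 4E-BP1 (6.64).

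Of 7 other CEACAM genes listed, 6 were measured (CEACAM3, CEACAM4, CEACAM16, CEACAM19, CEACAM20 and CEACAM21). Limma called 0 of these 6 in each of the 5 comparisons, with 0 at an unadjusted p under 0.05 too. Over all genes 0% to 5.72% were called by comparison, and 208 to 3604 of 18279 had an unadjusted p under 0.05. CEACAM3, a granulocyte receptor for bacteria and the neighbour of CEACAM6, was 6.88 ± 0.18 (SD, n = 3) in AD32 and 6.67 ± 0.18 (SD, n = 4) in A549 in DMSO. The median difference of the 6 between AD32 and A549 in DMSO was 0.17, and that of all genes 0.01. Paralogs of this family share long stretches of sequence, so part of a probe set's signal could come from a related transcript, and the probes' sequences were not analysed here.

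The pregnancy-specific glycoproteins, secreted relatives encoded beside CEACAM8 and made by the placenta, had 6 of 10 listed genes measured alone. PSG4 was 7.68, 8.13 and 7.43 in AD32, 6.64, 5.73, 5.97 and 5.64 in A549 in DMSO, 7.20 and 6.56 in discodermolide and 5.77 in AD32 4E-BP1. It was 3.38-fold higher in AD32 than in A549 in DMSO (SE 0.28 on the log2 scale, limma adjusted p = 0.00792), where 3.52% of all genes were called higher and 2.19% lower. The other 5 were not called, and each had a lower mean in AD32, by 0.06 to 0.37 on the log2 scale. Probe sets that name several of these genes at once were left out, and close sequence likeness makes the identity of PSG4 uncertain.

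**Figure D4:**
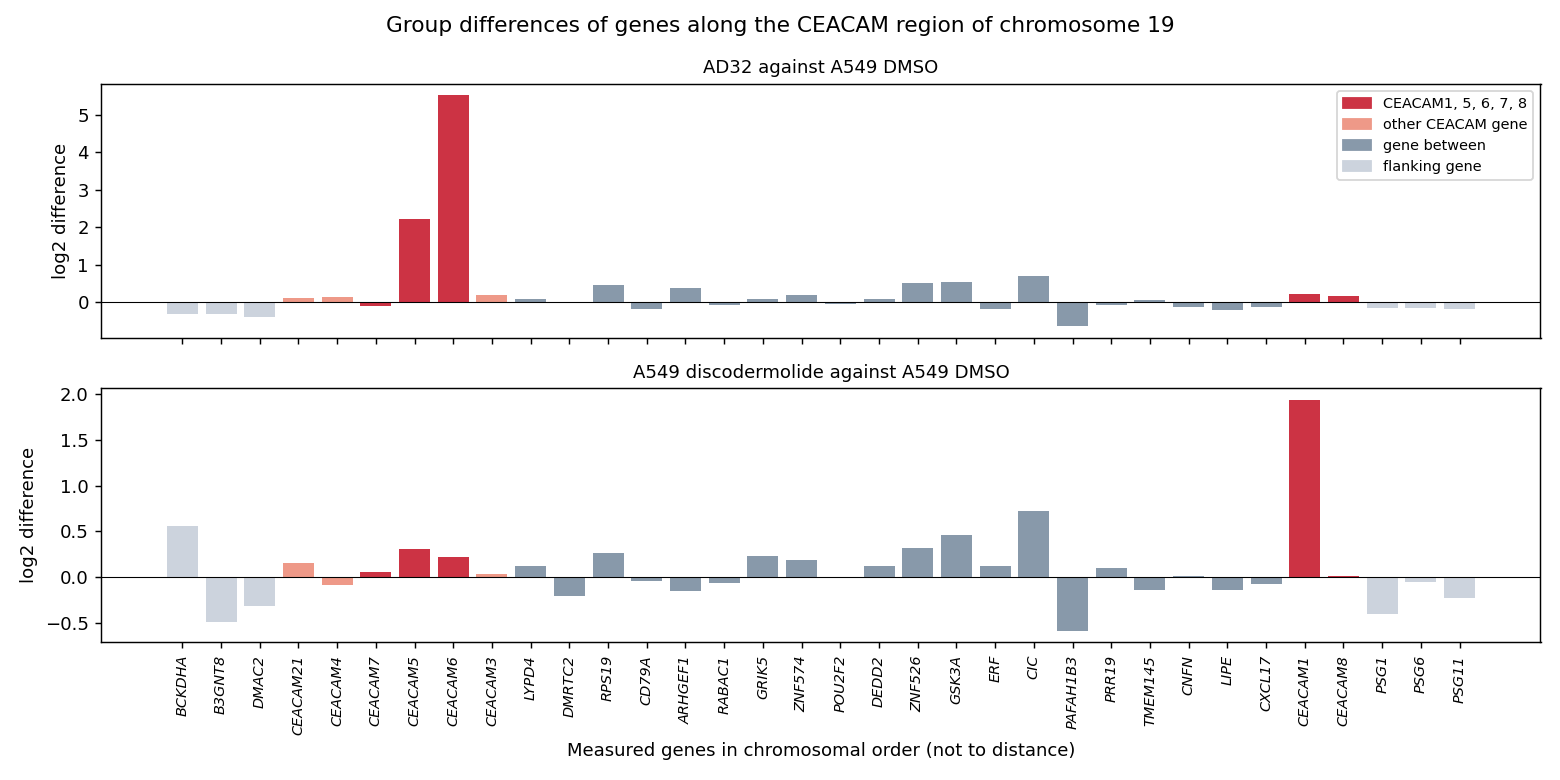
Difference (log2, vertical axes) of the 34 measured genes from 3 before CEACAM21 to 3 after CEACAM8, in chromosomal order and not to distance, for AD32 (top) and A549 in discodermolide (bottom), each against A549 in DMSO. The tall bars are CEACAM5 (2.23) and CEACAM6 (5.52) at the top and CEACAM1 (1.94) at the bottom, among neighbours between -0.63 and 0.72.

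From 3 measured genes before CEACAM21 to 3 after CEACAM8, 26 genes outside the CEACAM family were measured. Limma called 0 of 26 in AD32 against A549 in DMSO, with 7 at an unadjusted p under 0.05. Over all genes 5.72% were called, and 3604 of 18279 had an unadjusted p under 0.05, so a count of 0 among 26 is near the background. Their differences ran from -0.63 (PAFAH1B3) to 0.71 (CIC), with a median of -0.07. In A549 in discodermolide against DMSO 0 of 26 were called, with 2 at an unadjusted p under 0.05 and a range of -0.59 to 0.72. Over all genes 0.372% were called in that comparison, and 2033 of 18279 had an unadjusted p under 0.05. The flanking genes BCKDHA, B3GNT8 and DMAC2 differed in AD32 by -0.32, -0.31 and -0.39, and PSG1, PSG6 and PSG11 by -0.15, -0.16 and -0.17. CEACAM4 and CEACAM7 on one side of CEACAM5 and CEACAM6, and CEACAM3 on the other, differed by 0.13, -0.11 and 0.21.

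Among genes that act with CEACAM proteins, a list of signalling and binding partners had 25 measured of 29, of which 4 were called higher in AD32 than in A549 in DMSO and 0 lower, against 3.52% and 2.19% of all genes. The median difference was 0.02 and that of all genes 0.01. This list and those below were chosen with earlier results of these data known, so their counts are a description and not independent support. PXN, which encodes the focal adhesion adaptor paxillin, rose 2.35-fold (limma adjusted p = 0.00286) and EGFR, the epidermal growth factor receptor, rose 3.16-fold (limma adjusted p = 0.00613). The kinase gene FYN (2.24-fold) and the lectin gene LGALS3 (2.23-fold) were also called, but neither without AD32 replicate 1 or 2 or without A549 DMSO replicate 2, 3 or 4 (limma adjusted p from 0.0901 to 0.157 for FYN and 0.0919 to 0.127 for LGALS3). In discodermolide against DMSO 0 of 25 were called, with 2 at an unadjusted p under 0.05. Over all genes 0.372% were called there, and 2033 of 18279 had an unadjusted p under 0.05.

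CEACAM5 and CEACAM6 need a GPI anchor, which is built and attached by an enzyme series of the endoplasmic reticulum. Of 26 measured genes of GPI synthesis and attachment, 0 were higher and 1, PIGK, was lower in AD32 than in A549 in DMSO (1.64-fold, limma adjusted p = 0.047). PIGK encodes the catalytic subunit of the transamidase that adds the anchor. Its call was lost without any 1 of the 3 AD32 arrays or without A549 DMSO replicate 2, 3 or 4 (limma adjusted p from 0.0586 to 0.143). With 3.52% of all genes called higher and 2.19% lower, the list's counts were near those of all genes. Its median was -0.25, with a positive difference in 7 of 26, against 0.01 over all genes.

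Of other GPI-anchored surface proteins, 4 of 43 were called higher and 1 lower in AD32 against A549 in DMSO, with 3.52% of all genes called higher and 2.19% lower. Their median was 0.10, against 0.01 over all genes. MSLN, encoding mesothelin, rose 9.74-fold (limma adjusted p = 0.000619), from 5.89 in A549 in DMSO to 9.17. GPC4, the heparan sulfate proteoglycan glypican 4, rose 6.17-fold (limma adjusted p = 6.84e-05). CD55, an inhibitor of complement, was 3.03-fold higher (limma adjusted p = 0.023), a call lost without AD32 replicate 1 or 2 or without A549 DMSO replicate 2, 3 or 4 (0.0629 to 0.0956). CD24, a small mucin-like molecule, fell 4.18-fold (limma adjusted p = 0.00834). On the AD32 4E-BP1 array MSLN was 9.94-fold and GPC4 6.80-fold lower than in AD32. As this is a lone array, these folds are a description with no test.

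In A549 in discodermolide, FOLR1, the folate receptor gene, rose 2.86-fold (limma adjusted p = 0.00796) and was the 1 call among the 43. Of all genes, 0.372% were called in this comparison. FOLR1 was not called with arrays blocked by replicate number. It was not called without A549 DMSO replicate 4 (limma adjusted p = 0.0504) or without discodermolide replicate 1 (0.0914).

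Among 29 other immunoglobulin superfamily adhesion genes, CXADR, the coxsackievirus and adenovirus receptor, rose 2.06-fold in AD32 against A549 in DMSO (limma adjusted p = 0.0119) and NECTIN4 was 2.49-fold higher (limma adjusted p = 0.0149). NECTIN4 lost its call without AD32 replicate 1 or 2 or A549 DMSO replicate 4 (0.0614, 0.0668 and 0.0519). None was called lower, and the list's median of 0.03 was near that of all genes. Of all genes, 3.52% were called higher and 2.19% lower. Against A549 in discodermolide, MCAM (3.20-fold) and CADM1 (2.62-fold) were lower in AD32 (limma adjusted p = 0.00809 and 0.0272). MCAM lost its call without discodermolide replicate 1 (limma adjusted p = 0.0704), and CADM1 without either discodermolide array or AD32 replicate 1 or 2 (0.0741 to 0.224).

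Transcription factors tied to CEACAM or epithelial genes had 4 of 23 called higher and 0 lower in AD32 against A549 in DMSO, where 3.52% of all genes were called higher and 2.19% lower. Their median was 0.49 against 0.01 over all genes. As earlier results were known when this list was chosen, its counts and median are a description. EHF, an epithelial factor of the ETS family, rose 18.0-fold (SE 0.43 on the log2 scale, limma adjusted p = 0.000887), from 4.73 to 8.90. KLF4 rose 3.25-fold (limma adjusted p = 0.0013) and FOXA1, a pioneer factor of endodermal tissues, 1.99-fold (limma adjusted p = 0.00545). KLF5 was 1.88-fold higher (limma adjusted p = 0.0482), a call lost without AD32 replicate 1 or 2 or A549 DMSO replicate 2, 3 or 4 (0.102 to 0.179). On the lone AD32 4E-BP1 array EHF was 14.8-fold and KLF4 3.04-fold lower than in AD32, again a description with no test.

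In A549 in discodermolide STAT3 was the 1 factor called of 23, 2.12-fold higher (limma adjusted p = 0.0265), where 0.372% of all genes were called. Its call was lost without A549 DMSO replicate 2, 3 or 4 (limma adjusted p from 0.0648 to 0.107). It was also lost without either discodermolide array and with arrays blocked by replicate number. Secretory and mucosal epithelial genes had 5 of 29 called higher and 1 lower in AD32 against A549 in DMSO, with a median of 0.18. Over all genes 3.52% were called higher and 2.19% lower, with a median of 0.01. This list too was chosen with earlier results of these data known, so its excess of calls is not independent support. The keratin gene KRT7 rose 25.03-fold, the protease inhibitor gene SLPI 30.3-fold and the tetraspanin gene TSPAN8 29.3-fold, with limma adjusted p of 8.19e-07, 3.55e-05 and 6.6e-05. CDH17, an intestinal cadherin, fell 3.27-fold (limma adjusted p = 0.0012), from 10.25 to 8.54. It was also the 1 call among 9 measured intestinal epithelial markers, whose mean level was 5.91 to 6.04 in AD32 and 6.02 to 6.40 in A549 in DMSO.

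**Figure D5:**
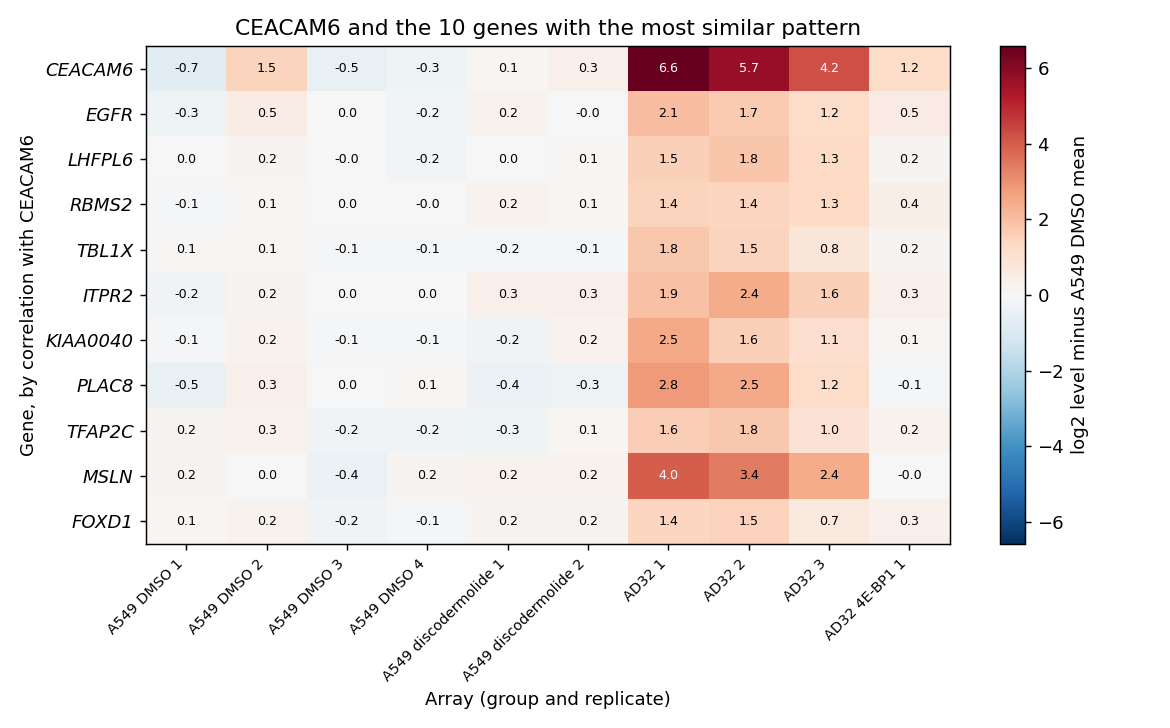
Level of CEACAM6 and of the 10 genes whose pattern was most like it, on each array, as log2 level minus the A549 DMSO mean of that gene (colour and printed value). CEACAM6 is 4.2 to 6.6 above that mean on the AD32 arrays and 1.2 on the AD32 4E-BP1 array, and the 10 genes are 0.7 to 4.0 above it in AD32.

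The genes most like CEACAM6 over the 10 arrays were found by Pearson correlation of log2 levels among 2233 genes whose group means spanned at least 1. They were EGFR (r = 0.987), LHFPL6 (0.969), RBMS2 (0.967), TBL1X (0.967), ITPR2 (0.964), KIAA0040 (0.963), PLAC8 (0.962), TFAP2C (0.962), MSLN (0.961) and FOXD1 (0.960). Within A549 the highest EGFR level, like that of CEACAM6, was on DMSO replicate 2, at 8.83 against 8.01, 8.40 and 8.19 on replicates 1, 3 and 4. EGFR was 10.41, 10.09 and 9.55 on AD32 replicates 1, 2 and 3. CEACAM5 came at rank 99 in this order (r = 0.920) and CEACAM1 at rank 1089 (r = -0.233). The arrays of a line share their source, and the AD32 arrays weigh most in each r.

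For CEACAM5 the closest genes were NMNAT2 (r = 0.987), EPHA4 (0.983) and IL1RL1 (0.983). IL1RL1, an interleukin receptor gene, stood at 7.85, 6.86 and 3.89 on AD32 replicates 1, 2 and 3 and at 3.27 to 3.75 elsewhere. For CEACAM1 they were C4BPA (r = 0.970), TSPAN33 (0.958) and ING4 (0.941). C4BPA, which encodes a chain of the complement regulator C4b-binding protein, was 9.85 and 10.63 on the discodermolide arrays, 10.66 on A549 DMSO replicate 1 and 5.41 to 6.51 on the other DMSO arrays. It was 6.16, 6.32 and 7.62 in AD32 and 8.02 in AD32 4E-BP1.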

How the data were processed

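One value for each of 24308 probe sets on each of 10 arrays was available. The authors deposited these as log2 values, a scale read here from their spread. The submitters' processing notes name Affymetrix Expression Console; how it was set is not given in the sources used here. Array medians lay between 6.50 and 6.63. The number of arrays limits the precision, and no detection calls were used.

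Of the probe sets, 19262 named 1 gene, 1720 several and 3326 none. They gave 18279 genes, and for 740 genes with over 1 probe set the one with the highest mean was used. Groups came from the labels. Tests used limma 3.58.1 in R 4.3.3 (lmFit, eBayes, all 10 arrays, 1 shared residual spread) and were checked on simulated data. They were two-sided; Benjamini-Hochberg adjustment covered the 18279 genes, with a threshold of 0.05. Intervals are 95% and unadjusted. Python 3.11.15 and Biopython 1.88 handled RefSeq promoters.

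The members and lists were chosen with earlier results of these data known. The 5 members and other CEACAM genes were named whatever their result, list genes as the up to 4 smallest p past the threshold per comparison, and like genes by correlation. Alternatives covered scaling, filtering, the prior, array weights, the samples fitted, probe set averaging, the replicate block and omitted arrays. The main fit did not pair arrays by replicate number. Pseudocounts did not apply to log2 values.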

Additional observations from a re-analysis of the deposited data

Results flagged for a closer look

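In the group of 4 A549 DMSO arrays, CEACAM1 on replicate 1 stood at 8.42, with the other 3 arrays between 5.63 and 5.95. Its gap to the nearest of them was 0.884 of the group's range, above the 95% critical value of Dixon's test for 4 samples. Of 17 CEACAM and pregnancy-specific glycoprotein genes examined this way, 1 was past that value, and chance flags about 1 in 20 groups.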

How the results depend on the processing

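The 5 CEACAM genes had 370 values under the alternatives. Some small differences changed sign. CEACAM1 in AD32 against A549 in DMSO did so in 5 of 17 alternatives, and CEACAM6 in discodermolide against DMSO in 3 of 17. By side of the threshold, or by a move smaller than the spread in the AD32 against A549 contrasts, 361 values stayed the same. No called difference reversed, and 9 values newly passed the threshold. Those of CEACAM5 and CEACAM6 rest on the AD32 arrays whose high CEACAM6 chose the genes, set against 1 array, so nothing is read from them. CEACAM5, CEACAM7 and CEACAM8 have no value with the lowest 1 in 3 genes by mean level left out. Among other named genes, 3686 of 4021 values kept their side of the threshold, 166 lost their call, 169 gained one and no called difference reversed. Counts of called genes moved more, and the cause was not tested.

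In A549 discodermolide against DMSO, 68 genes were called, and 36 with the lowest 1 in 3 left out, 4573 with array weights, 106 with the 2 groups alone, 15 with DMSO replicates 3 and 4 averaged, 2656 without both DMSO replicate 1 and AD32 replicate 3, and 134 with AD32 replicate 3 out of the pooled spread. Leaving out 1 array gave 8 to 643. In AD32 against DMSO, 1045 became 4215 with weights, 525 averaged and 5164 without both arrays (512 to 2164 without 1 array). The split of 644 higher and 401 lower became 1041 and 1123 without DMSO replicate 1. In AD32 against discodermolide, 683 became 1869 with weights, 353 with the 2 groups alone, 2769 without both arrays and 1215 with DMSO replicate 1 out of the pooled spread (132 to 1082). In AD32 4E-BP1 against AD32, 168 became 107 with the lowest 1 in 3 left out, 1282 with weights, 13 with the 2 groups alone, 99 averaged, 3005 without both arrays and 262 with DMSO replicate 1 out of the pooled spread (113 to 656). In AD32 4E-BP1 against DMSO, 0 became 3 with weights. The alternatives on the pooled spread were chosen after seeing the data.

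CEACAM1 in discodermolide against DMSO was called at 2.60 both with weights and without both arrays (limma adjusted p = 0.000392 and 3.12e-05; 1.59 to 2.60 without 1 array, and 3.12e-05 to 0.955 over all alternatives). In AD32 4E-BP1 against AD32, the difference of CEACAM5 was -2.32 with weights and -2.79 without both arrays (-2.79 to -1.52 without 1 array). That of CEACAM6 was -4.53 and -4.96 (-4.96 to -3.79 without 1 array).

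Whether replicate numbers pair the arrays could not be told. Same-numbered AD32 and DMSO arrays had deviations from their group means correlated at 0.677, -0.264 and 0.411. Differently numbered ones ran from -0.612 to 0.534. AD32 replicate 1 and DMSO replicate 1 also share a low mitotic level, which this check cannot separate from pairing. With the replicate block, calls numbered 4 in discodermolide against DMSO, 650 in AD32 against DMSO and 547 in AD32 against discodermolide, and CEACAM1 in the first was 1.56 (limma adjusted p = 0.713). The AD32 4E-BP1 array carries no number, so its comparisons have no such fit. Signal near the lower quartile limits CEACAM5, CEACAM7 and CEACAM8.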
